A study of Mus musculus with 3 samples.

Results

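The 39 Hox genes of the mouse were followed along the first steps of nephron formation in the fetal kidney. They were taken as every gene of the deposited count matrix whose symbol reads Hox, a cluster letter from a to d and a number, which gave 39 of 27998 genes: 11 in the Hoxa cluster on chromosome 6, 10 in the Hoxb cluster on chromosome 11, 9 in the Hoxc cluster on chromosome 15 and 9 in the Hoxd cluster on chromosome 2. The cells were nephron progenitors of Six2GFP+ mouse embryos at E14.5 (embryonic day), sorted for the green fluorescence, and all 3 samples carry the same genotype, age and sort with no treatment. Per the labels, each sample was a tube of kidneys pooled from several litters, and single-cell RNA sequencing (10x Chromium, version 2) counted unique molecular identifiers (UMIs), 1 for each RNA molecule caught. The matrix marks the library of a cell by a barcode suffix (1, 2 or 3), used here as the library's name, and the sources used here do not tie these suffixes to the sample labels. No control tissue or second strain was analysed, so the comparisons are between cells of the same tubes.

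Cells were grouped by the raw UMIs of 3 genes taken as marks of successive steps. Six2 encodes the factor that keeps progenitors self-renewing, Wnt4 the signal that drives their change into an epithelium, and Lhx1 a LIM homeobox factor of the first epithelial structures. Six2 cells had at least 1 UMI of Six2 and none of Wnt4 or Lhx1, and numbered 2173, 2157 and 1681 in libraries 1, 2 and 3. Wnt4 cells had at least 1 UMI of Wnt4 and none of Lhx1 (200, 103 and 110 cells). Lhx1 cells had at least 1 UMI of Lhx1 (31, 29 and 19 cells), and 36 of these 79 cells also held Six2 without Wnt4. Wnt4 was found in 11, 3 and 10 of the Lhx1 cells in libraries 1, 2 and 3. The other Lhx1 cells held neither Six2 nor Wnt4, and whether all Lhx1 cells belong to the nephron lineage was not tested. The remaining 1395 cells had none of the 3 genes. As to the labelled cell type, all 8 markers of uncommitted progenitors, Six2 among them, were found in each group. Their summed level was 1305 to 1903 CPM (UMIs of the gene over the sum's total, scaled to 1e6) in Six2 cells, 908 to 1433 in Wnt4 cells and 659 to 1265 in Lhx1 cells. The cut by Six2, Wnt4 and Lhx1 sets part of the differences in this and the next 2 lists. Markers of committing progenitors, Wnt4 among them, summed to 216 to 276, 414 to 503 and 720 to 1229 CPM in the same order, and markers of the early nephron, Lhx1 among them, to 4.28 to 6.92, 12.2 to 18.2 and 321 to 372 CPM.

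Of the other cell types, only markers of the ureteric epithelium rose along the groups in each library, and the depth of the cells rose so in libraries 1 and 3. The 8 markers of the ureteric epithelium, the neighbouring tubule that branches from the mesonephric duct, summed to 0.295 to 0.777 CPM in Six2 cells, 1.24 to 2.57 in Wnt4 cells and 17.1, 230 and 111 in Lhx1 cells of libraries 1, 2 and 3. In Lhx1 cells 7 of these 8 markers had a UMI and Upk3a was at 0, and the signal came from 1, 2 and 2 cells. The 6 immune markers summed to 53.6 CPM in Wnt4 cells of library 2, which held 1 immune cell, and to at most 9.52 CPM in the other sums. The 8 stromal markers ranged from 57.9 to 130 CPM in Six2 cells, 47.5 to 86.7 in Wnt4 cells and 38.3 to 163 in Lhx1 cells. Endothelial markers summed to 17.0 to 27.7 CPM and erythroid markers to at most 2.48 CPM over all 9 sums. Of the 6 endothelial markers only 2 had a UMI in Lhx1 cells, with Pecam1, Cdh5, Tie1 and Emcn at 0, and Cdh5 and Tie1 were at 0 in Wnt4 cells. A cell enters a group by a UMI caught, and the median UMIs per cell were 16246, 12122 and 15919 in Six2 cells, 19990.5, 14039 and 19862 in Wnt4 cells and 22667, 11734 and 21684 in Lhx1 cells. A barcode was found in 2 libraries 22 times, and in all 3 never.

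Hox proteins are transcription factors that give cells a position along the body axis. Their genes sit in 4 clusters in the order in which they are used from head to tail, and genes of the same number in different clusters, called paralogues, descend from 1 ancestor and often stand in for each other. The metanephric kidney forms in the tail part of the trunk. Its mesenchyme needs paralogues 11 to attract the ureteric bud, and paralogues 10 act in its stroma, while Hoxb7 is best known there as a gene of the ureteric epithelium, whose promoter drives a widely used transgene.

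The shared descent of paralogues is visible in the homeobox, the part of each gene that encodes its DNA-binding domain and that was found in all 39 genes. Over the whole homeobox of 180 bases, pairs of the same paralogue number were identical at a median of 80.6% of bases (67.2% to 93.9%, 42 pairs), against 61.7% for pairs within a cluster (172 pairs) and 60.6% for the other 527 pairs. The 51 bases that follow cover the recognition helix, from the GRCm38 annotation (GENCODE M21), 5′ to 3′ on the coding strand. They are shown for the 7 genes that passed a test below and the remaining paralogues 10 and 11, and capitals mark bases that differ from Hoxc10.
Hoxc10: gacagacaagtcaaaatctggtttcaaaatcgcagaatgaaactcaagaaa
Hoxa10: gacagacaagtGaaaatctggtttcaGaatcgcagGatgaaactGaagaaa
Hoxd10: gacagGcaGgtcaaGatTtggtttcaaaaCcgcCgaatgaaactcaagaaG
Hoxc11: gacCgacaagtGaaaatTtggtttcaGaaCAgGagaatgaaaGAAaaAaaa
Hoxa11: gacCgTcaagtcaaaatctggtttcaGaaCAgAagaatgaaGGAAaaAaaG
Hoxd11: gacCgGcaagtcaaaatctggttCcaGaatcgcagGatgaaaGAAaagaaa
Hoxc9: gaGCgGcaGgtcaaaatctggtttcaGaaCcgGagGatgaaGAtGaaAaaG
Hoxc8: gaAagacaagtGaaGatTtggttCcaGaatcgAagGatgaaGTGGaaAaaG
Hoxb7: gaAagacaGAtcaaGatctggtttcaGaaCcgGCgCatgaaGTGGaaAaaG
Hoxb6: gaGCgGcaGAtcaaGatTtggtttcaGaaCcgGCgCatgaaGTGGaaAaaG
Hoxa10 differed from Hoxc10 at 4 of the 51 bases and Hoxd10 at 7, Hoxb6 of the same length at 18. The stretch of Hoxc10 lies at chr15:102970971-102971021 in exon 2 on the plus strand, and that of Hoxa10 at chr6:52232560-52232610 in exon 2 on the minus strand. Hoxc8, Hoxc9, Hoxc10 and Hoxc11, the Hoxc genes that the tests single out, have their stretches at chr15:102992694-102992744, chr15:102984053-102984103, chr15:102970971-102971021 and chr15:102956603-102956653, so that they are neighbours within the cluster. Those of Hoxb7 and Hoxb6 lie at chr11:96289508-96289558 and chr11:96300812-96300862. The homeobox identity of Hoxc10 with Hoxa10 was 80.6%, with Hoxc9 71.7%, with Hoxc8 60.0% and with Hoxb7 61.7%.

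Hox RNA was found throughout the lineage. Summed over the 39 genes, Hox RNA reached 1746, 2354 and 1786 CPM in Six2 cells of libraries 1, 2 and 3, 1797, 2253 and 1906 in Wnt4 cells, and 1500, 2123 and 1707 in Lhx1 cells. Library 2 was the highest in each group, by more than the groups differed within a library. With each cell thinned to 6000 UMIs, a Six2 cell held a median of 7, 9 and 7 different Hox genes, a Wnt4 cell 7, 8 and 8, and a Lhx1 cell 7, 9 and 7. Single cells went down to 1 Hox gene in Six2 and Lhx1 cells and to 0 in 1 Wnt4 cell of library 2. The 73 immune cells of the same tubes, which should lack a kidney Hox code, held a median of 0 in each library and summed to 239, 19.4 and 115 CPM, at median depths of 10279.5, 8139 and 9803.5 UMIs. Levels were not divided by gene length, since a UMI is read once per molecule at the 3′ end, but the ease of catching a molecule differs between genes, so the order of genes is an order of caught molecules.

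Paralogue 10 led the code. In Six2 cells the 3 genes of paralogue 10 gave 33.9% ± 0.57 of all Hox UMIs (SD, n = 3 libraries), the 4 of paralogue 9 gave 17.2% ± 0.73 and the 3 of paralogue 11 gave 11.2% ± 0.66. Paralogue 2 followed at 7.35% ± 1.36 and paralogue 8 at 7.25% ± 0.11, which did not differ beyond their spread. Paralogue 4 gave 6.16% ± 0.09, paralogue 6 gave 4.76% ± 0.02, paralogue 7 gave 4.74% ± 0.20 and paralogue 5 gave 3.61% ± 0.18. Lower shares came from paralogue 3 (2.15% ± 0.16), paralogue 12 (1.52% ± 0.06) and paralogue 13 (0.0046% ± 0.0028). The 3 largest shares therefore came from numbers 9 to 11, and the contribution of the lower numbers was spread over several genes. Hoxb2 was the highest of these, at 106, 205 and 123 CPM, followed by Hoxb8 at 80.9, 123 and 86.6 CPM.

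**Figure D1:**
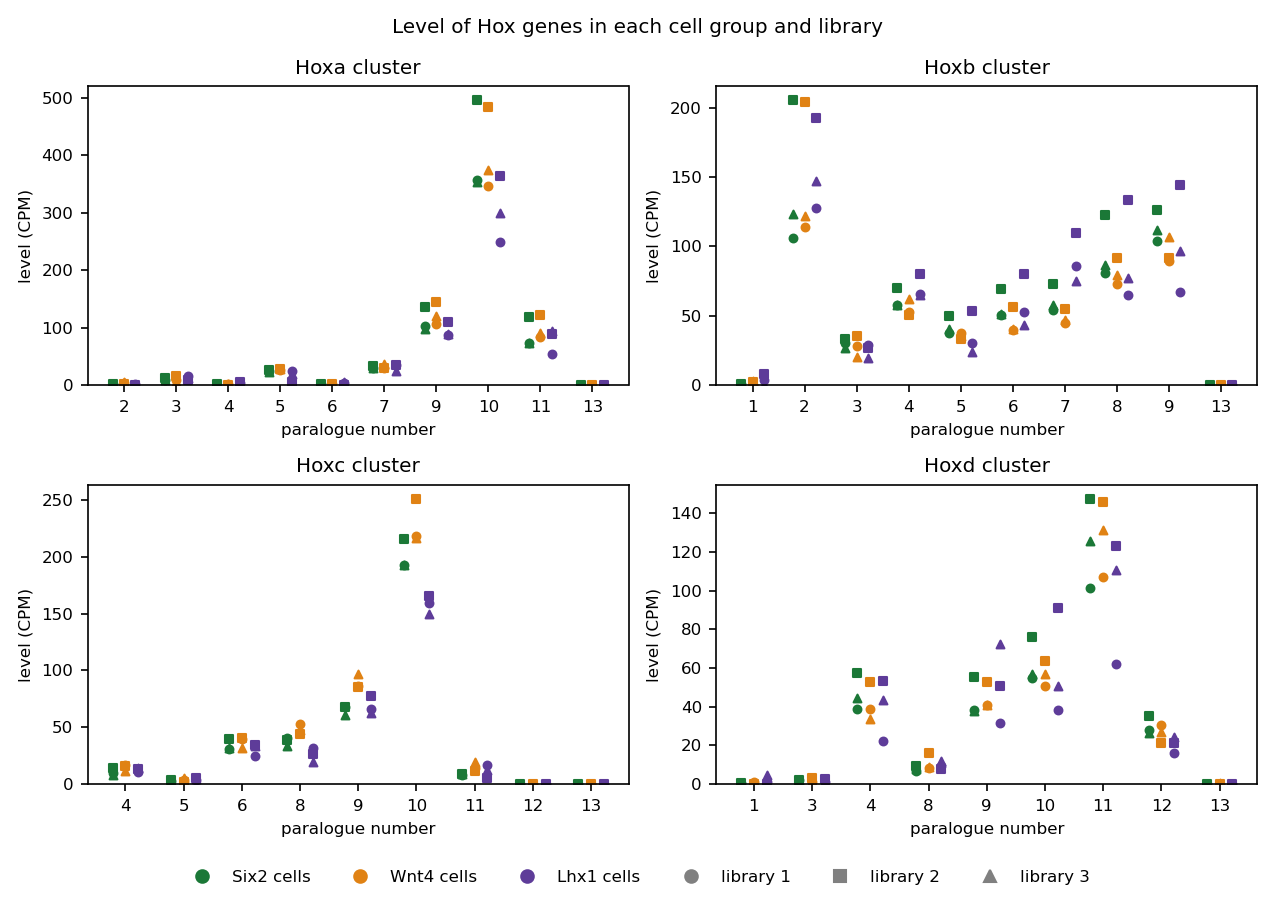
Level of Hox genes in CPM (vertical axis, linear, a different range per panel) by paralogue number (horizontal axis) in the 4 clusters. Each point is 1 library of 1 cell group (green Six2, orange Wnt4, purple Lhx1 cells; circle, square and triangle for libraries 1, 2 and 3). Hoxa10 stands highest, at 353 to 496 CPM in Six2 cells, and paralogue 13 lies at the axis in all 4 clusters.

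Within a paralogue number the clusters contributed unequally. Hoxa10 was the most abundant Hox gene, at 356, 496 and 353 CPM in Six2 cells of libraries 1, 2 and 3, ahead of Hoxc10 at 192, 216 and 193 and Hoxd10 at 54.7, 75.8 and 56.8. The ranges of the 3 genes did not overlap. Among paralogues 11, Hoxd11 (101, 147 and 125 CPM) stood above Hoxa11 (73.6, 119 and 73.1), and the ranges of these 2 genes overlapped across libraries although Hoxd11 was higher in each. Hoxc11, the Hoxc member of that set, was far lower at 8.05, 8.44 and 8.71 CPM. Among paralogues 9, Hoxb9 (104, 126 and 112 CPM) and Hoxa9 (102, 137 and 97.0) overlapped, Hoxc9 lay lower at 68.1, 68.3 and 61.2, and Hoxd9 was lowest at 38.4, 55.2 and 37.6. The Hoxb cluster ends at number 9 apart from Hoxb13, and in it levels did not follow the number: Hoxb2 was above every other Hoxb gene on average (145 ± 53.1 CPM) while Hoxb3 beside it stood at 30.1 ± 3.37.

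Of the 39 genes, 27 passed the filter on low counts of the tests and 12 did not. The lowest gene tested, Hoxc5, had 331 UMIs in the 3 groups. Under the filter, Hoxa2 had 241 UMIs, Hoxa6 237, Hoxd3 214, Hoxa4 109, Hoxb1 104, Hoxd1 51, Hoxd13 7 and Hoxc13 2. Hoxa13, Hoxb13 and Hoxc12 had none among 104077562 UMIs of 6503 cells, which allows a level of up to 0.0288 CPM, or a UMI in up to 0.0461% of cells, each for counting error only. Number 13 thus stayed out of the tests with every member. In GENCODE M21, 12 of the 39 genes overlap another gene on the same strand and 13 overlap a gene on the other strand. The long annotated span of Hoxc5 covers Hoxc6, Hoxc8, Hoxc9 and Hoxc10, Hoxb6 lies across the antisense gene Hoxb5os, and the sources used here do not state the annotation and strand used in counting, so values of these genes are less certain.

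Detection in single cells showed how general the code was. At 6000 UMIs per cell, Hoxa10 was found in 86.5% of 5917 Six2 cells, 88.0% of 410 Wnt4 cells and 79.5% of 78 Lhx1 cells (95% exact binomial interval 68.8% to 87.8%), against 7.81% of 64 immune cells (2.59% to 17.3%). Without thinning the shares were 97.0%, 98.3%, 93.7% and 10.96%. Hoxc10 was found in 67.9%, 70.0% and 61.5% of the 3 groups (91.4%, 94.4% and 89.9% without thinning) and in 4.69% of immune cells, and Hoxd11 in 51.5%, 50.0% and 50.0% and in 1.56%. Hoxa11 reached 37.6%, 41.2% and 38.5% and 1.56% of immune cells. These shares lie far above those of the immune cells. Immune cells were taken as the background of free RNA and mixed droplets, and the source of their Hox UMIs was not tested. Hoxc11 was rare, in 4.80%, 7.80% and 7.69% of the 3 groups and in 0 of 64 immune cells (95% exact binomial interval up to 5.60%), an interval that holds its share in Six2 cells.

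Differences between the groups were tested on the UMIs summed per library and group, with edgeR's quasi-likelihood test, the library as a block and Benjamini-Hochberg adjustment over all 10240 genes tested (threshold 0.05, two-sided). The block compares groups within a tube, and the p-values measure only how these differences vary over 3 tubes, a spread that may be technical. The groups were cut by Six2, Wnt4 and Lhx1, so these 3 genes are no result.

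Between Wnt4 and Six2 cells, the middle of the Hoxc cluster was higher in Wnt4 cells and 2 Hoxb genes were lower. Of the 27 tested Hox genes 4 were called higher, all from the Hoxc cluster (Hoxc8, Hoxc9, Hoxc10 and Hoxc11), and 2 lower, Hoxb6 and Hoxb7. Among all genes tested, 4.86% were called higher and 5.34% lower (10.2% in either direction), so the share called among the tested Hox genes was 14.8% higher and 7.41% lower. Each of the 6 genes went the same way in 3 of 3 libraries.

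Hoxc9 had the lowest p of the set. Its level was 68.1, 68.3 and 61.2 CPM in Six2 cells of libraries 1, 2 and 3 and 86.7, 85.3 and 96.6 in Wnt4 cells. Every Wnt4 sum lay above every Six2 sum. The log2 difference was 0.44 ± 0.07 (SE; edgeR adjusted p = 0.0003), and a Hoxc9 UMI was found in 41.2% of Wnt4 and 31.0% of Six2 cells at 6000 UMIs, with 3.12% in immune cells. Hoxc8 was at 40.7, 38.5 and 33.1 CPM in Six2 cells and 52.6, 43.7 and 47.5 in Wnt4 cells, again without overlap, a log2 difference of 0.37 ± 0.09 (edgeR adjusted p = 0.0076). It was found in 28.8% of Wnt4 and 19.8% of Six2 cells at 6000 UMIs, with 1.56% in immune cells. Hoxc10, the second most abundant Hox gene, was at 192, 216 and 193 CPM in Six2 cells and 218, 251 and 216 in Wnt4 cells, where the lowest Wnt4 sum only just passed the highest Six2 sum, a log2 difference of 0.18 ± 0.05 (edgeR adjusted p = 0.0177). Hoxc11 had the largest difference and the lowest level, with 8.05, 8.44 and 8.71 CPM in Six2 cells and 14.49, 11.9 and 19.4 in Wnt4 cells, a log2 difference of 0.87 ± 0.17 (edgeR adjusted p = 0.0017). Its Six2 sums were almost equal and its Wnt4 sums spread widely, all of them above the Six2 range.

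The remaining Hoxc genes leaned the same way without passing the test. All 7 tested Hoxc genes had a log2 difference above 0, with a median of 0.42 against -0.01 for all genes. Hoxc4 was at 0.50 ± 0.16 (edgeR adjusted p = 0.0543), Hoxc5 at 0.42 ± 0.33 and Hoxc6 at 0.17 ± 0.10. Hoxc5 and Hoxc6 were higher in only 2 of 3 libraries, and Hoxc5 rests on 33 UMIs in Wnt4 cells. In CPM the whole cluster summed to 353, 389 and 339 in Six2 cells and 432, 450 and 428 in Wnt4 cells, groups that did not overlap. Its share of Hox UMIs was 18.6% ± 1.88 and 22.2% ± 2.05 (SD, n = 3 libraries), higher in Wnt4 cells in each library.

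Hoxb genes leaned the other way. Hoxb6 was at 50.3, 69.2 and 51.1 CPM in Six2 cells and 40.0, 56.2 and 40.5 in Wnt4 cells, so the groups overlapped through library 2 while each library on its own showed the lower level. Its log2 difference was -0.33 ± 0.08 (edgeR adjusted p = 0.0100). Hoxb5os, the antisense gene that Hoxb6 overlaps, was at 73.8, 29.2 and 60.5 CPM in Six2 cells and 71.0, 40.4 and 47.1 in Wnt4 cells, and its part in the Hoxb6 value was not tested. Hoxb7 was at 54.1, 73.2 and 57.4 CPM in Six2 cells and 44.6, 54.9 and 47.1 in Wnt4 cells, overlapping only through library 2 as well, with a log2 difference of -0.32 ± 0.08 (edgeR adjusted p = 0.0095). Of the 8 tested Hoxb genes 7 were below 0, with a median of -0.21, Hoxb2 being the one above at 0.03 ± 0.06. Among the 7, Hoxb3 and Hoxb4 were lower in only 2 of 3 libraries. Hoxb8 at -0.22 ± 0.07 (edgeR adjusted p = 0.0617) and Hoxb9 at -0.23 ± 0.08 (edgeR adjusted p = 0.0728) did not pass. The Hoxb share of Hox UMIs was 31.0% ± 1.02 in Six2 and 27.1% ± 0.38 in Wnt4 cells.

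**Figure D2:**
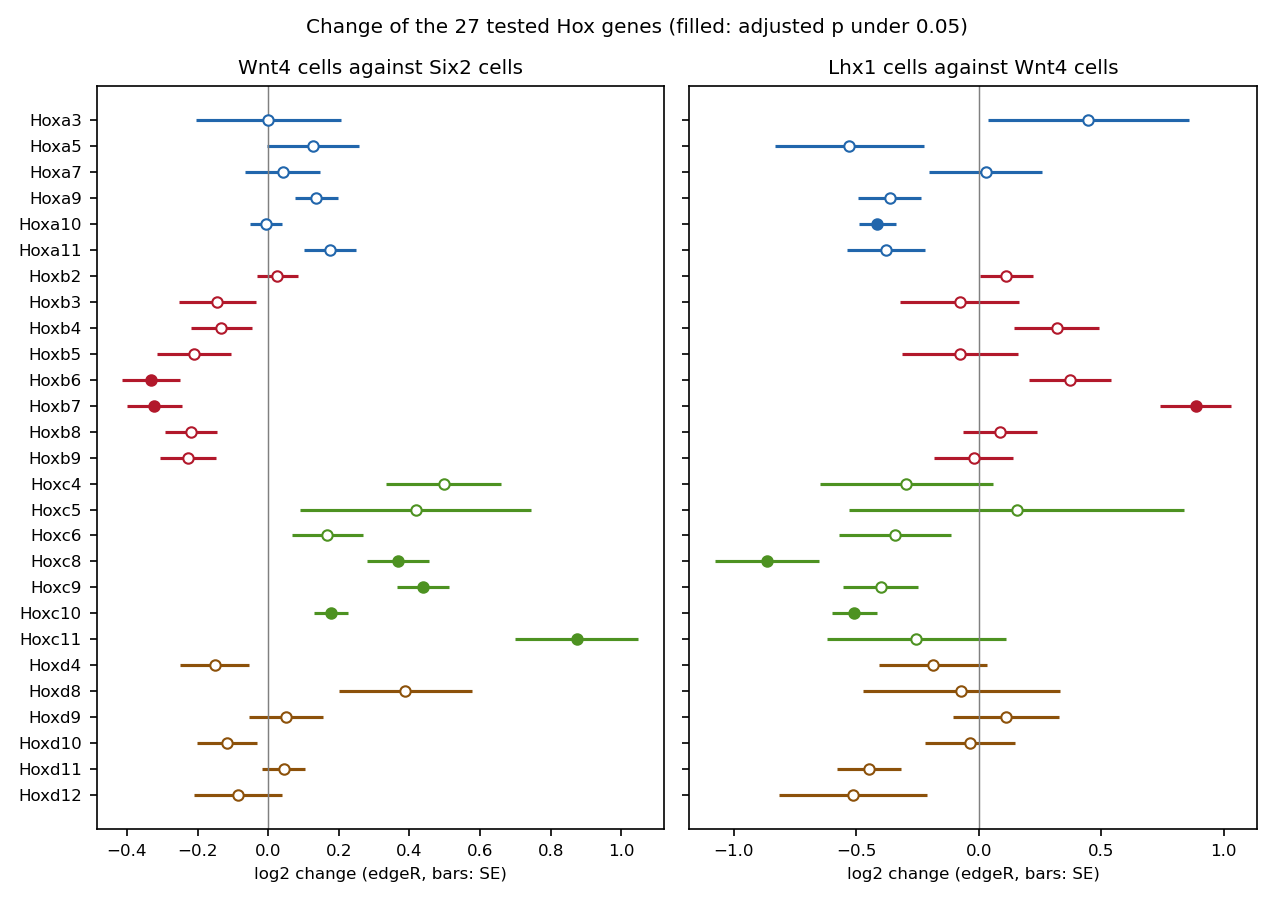
Log2 difference (horizontal axis; points with SE bars) of the 27 tested Hox genes, ordered by cluster and number, between Wnt4 and Six2 cells (left) and Lhx1 and Wnt4 cells (right), coloured by cluster; filled points passed the edgeR test. On the left all 7 Hoxc genes lie above 0 and 7 of 8 Hoxb genes below it.

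No Hoxa or Hoxd gene passed between Wnt4 and Six2 cells. The median log2 difference was 0.08 over 6 Hoxa genes and -0.02 over 6 Hoxd genes. Hoxa10 was at 346, 484 and 374 CPM in Wnt4 cells, next to its 356, 496 and 353 in Six2 cells, a log2 difference of -0.0048 ± 0.045, with the smallest SE of the 27 genes. Hoxa9 at 0.14 ± 0.06 (edgeR adjusted p = 0.186) and Hoxa11 at 0.18 ± 0.07 (edgeR adjusted p = 0.154) were higher in 3 of 3 libraries and missed the threshold. Hoxd9 at 0.05 ± 0.10, Hoxd10 at -0.12 ± 0.08 and Hoxd11 at 0.04 ± 0.06 also gave no call. For number 10, the log2 difference was 0.18 for Hoxc10, -0.0048 for Hoxa10 and -0.12 for Hoxd10. Only Hoxc10 was called, and whether these differ from each other was not tested.

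The calls between Wnt4 and Six2 cells changed with the fit and with thinning, which lowers the number of grouped cells as well as the depth when done before grouping. With each cell thinned to 6000 UMIs before grouping, which leaves 3990 Six2 and 179 Wnt4 cells, 0 Hox genes passed: Hoxc9 was at a log2 difference of 0.51 (edgeR adjusted p = 0.0936), Hoxc8 at 0.40 (0.499), Hoxc10 at 0.16 (0.571), Hoxb6 at -0.52 (0.277) and Hoxb7 at -0.09 (0.910). With the 9 sums thinned to the smallest of them, 0 passed as well, with Hoxc9 at 0.30 (edgeR adjusted p = 0.721). Without the block 0 of the 27 genes passed, with edgeR adjusted p from 0.134 (Hoxc11) to 0.640 (Hoxc10) for the 6 genes, while their log2 differences stayed at -0.33 to 0.90. With DESeq2, 1 gene passed, Hoxc9 (adjusted p = 0.0048). Leaving out library 1 or library 3 also left Hoxc9 as the only one of the 6 genes that passed (edgeR adjusted p = 0.0175 and 0.0272), and leaving out library 2 kept all 6. At an unadjusted p under 0.05, 11 of the 27 genes passed in the fit with the block. The share of all genes at this threshold was not counted, so this number is no result about Hox genes.

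Between Lhx1 and Wnt4 cells, Hoxb7 was higher in Lhx1 cells and the 2 most abundant genes of paralogue 10 were lower. Of the 27 tested genes 1 was called higher in Lhx1 cells, Hoxb7, and 3 were called lower, Hoxa10, Hoxc10 and Hoxc8. Of all genes tested 0.996% were called higher and 0.156% lower (1.15% in either direction), against 3.70% and 11.1% of the tested Hox genes. This comparison and the one before it share the Wnt4 sums, so their directions are not independent. The comparison of Lhx1 with Six2 cells, which shares the Lhx1 sums, is given beside each gene.

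Hoxb7 was at 85.7, 110 and 74.7 CPM in Lhx1 cells, above all 6 sums of the other groups. Against Wnt4 cells (44.6, 54.9 and 47.1) the log2 difference was 0.89 ± 0.15 (edgeR adjusted p = 0.0008), and against Six2 cells 0.56 ± 0.13 (edgeR adjusted p = 0.0082), higher in 3 of 3 libraries both times. At 6000 UMIs, Hoxb7 was found in 45.2%, 35.7% and 26.3% of Lhx1 cells in libraries 1, 2 and 3. The shares were 25.9%, 31.1% and 26.4% in Wnt4 cells and 27.5%, 34.5% and 28.6% in Six2 cells. In library 3 the share of Lhx1 cells was thus not above that of either group. With the libraries pooled, the shares were 37.2% of Lhx1, 27.3% of Wnt4 and 30.3% of Six2 cells. Hoxb7 was found in 0 of 64 immune cells (95% exact binomial interval up to 5.60%). The ureteric markers summed to at most 2.57 CPM in the other groups and to 17.1, 230 and 111 in Lhx1 cells. With immune cells and cells holding any ureteric UMI left out, Hoxb7 stood at 81.4, 92.3 and 63.5 CPM in the 74 remaining Lhx1 cells. The difference from Wnt4 cells was then 0.73 (edgeR adjusted p = 0.0171), and that from Six2 cells 0.42, which no longer passed (edgeR adjusted p = 0.108).

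Hoxa10, which gave no call between Wnt4 and Six2 cells, was lower in Lhx1 cells, at 249, 364 and 299 CPM. The groups overlapped across libraries, since library 2 is high in each, and within each library the Lhx1 sum was the lowest of the 3. The log2 difference was -0.41 ± 0.08 from Wnt4 cells (edgeR adjusted p = 0.0023) and -0.42 ± 0.07 from Six2 cells (edgeR adjusted p = 0.0005). Hoxc10 was at 160, 166 and 149 CPM in Lhx1 cells, below all 6 sums of the other groups, with a log2 difference of -0.51 ± 0.09 from Wnt4 cells (edgeR adjusted p = 0.0021) and -0.33 ± 0.09 from Six2 cells (edgeR adjusted p = 0.0271). The third gene of the number, Hoxd10, was at 38.3, 90.9 and 50.6 CPM and went in different directions in different libraries (-0.04 ± 0.18 and -0.15 ± 0.17). Paralogue 10 as a set gave 29.4% ± 0.34 of Hox UMIs in Lhx1 cells (SD, n = 3 libraries), below every library of Wnt4 cells (34.5% ± 0.80) and Six2 cells (33.9% ± 0.57).

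Hoxc8 had the largest difference of the 3 lower genes, with 31.7, 26.7 and 19.3 CPM in Lhx1 cells and 52.6, 43.7 and 47.5 in Wnt4 cells, with no overlap and a log2 difference of -0.86 ± 0.21 (edgeR adjusted p = 0.0457). From Six2 cells the difference was -0.50 ± 0.21 and did not pass (edgeR adjusted p = 0.213). This gene rests on 42 UMIs in 79 Lhx1 cells, and its call against Wnt4 cells was lost in 12 of 17 alternatives. Hoxc9, with 65.9, 77.5 and 62.7 CPM in Lhx1 cells, lay below all its Wnt4 sums without passing (-0.40 ± 0.15, edgeR adjusted p = 0.354) and had a log2 difference of 0.04 ± 0.15 from Six2 cells. Hoxc11, at 17.1, 5.35 and 12.1 CPM, spread too widely over the libraries for a direction.

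**Figure D3:**
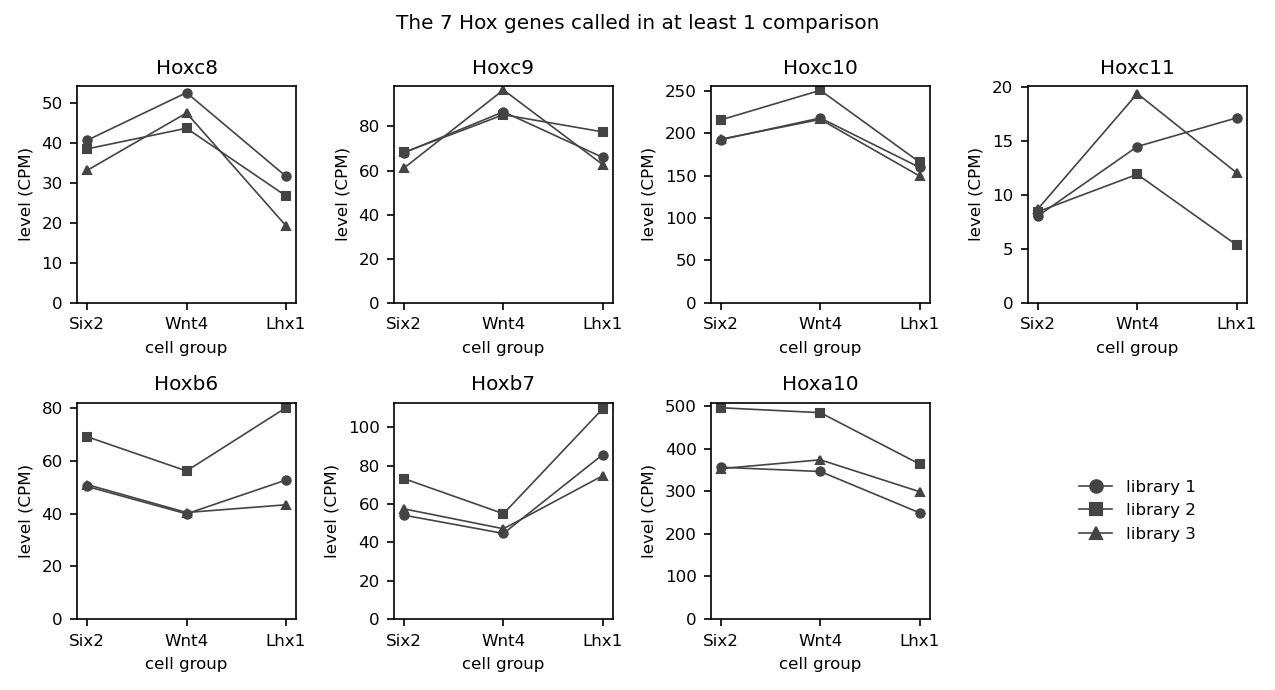
Level in CPM (vertical axis, linear from 0) of the 7 Hox genes called in at least 1 comparison, in Six2, Wnt4 and Lhx1 cells (horizontal axis); each line joins the 3 cell groups of 1 library. Hoxc8, Hoxc9 and Hoxc10 peak in Wnt4 cells in all 3 libraries, Hoxb6 and Hoxb7 are lowest there in all 3, and Hoxa10 is lowest in Lhx1 cells.

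Against Six2 cells, Lhx1 cells had 1 Hox gene called higher (Hoxb7) and 2 called lower (Hoxa10 and Hoxc10) of 27, or 3.70% and 7.41%, beside 3.31% and 1.86% of all genes (5.17% in either direction). Paralogues 11, whose loss removes the kidney, did not pass. Hoxd11 was at 62.0, 123 and 111 CPM in Lhx1 cells, lower in 3 of 3 libraries than in Six2 cells (-0.40 ± 0.12, edgeR adjusted p = 0.0572), and Hoxa11 at 54.1, 88.2 and 94.0 was lower in 2 of 3 (-0.20 ± 0.15, edgeR adjusted p = 0.553). Among paralogues 9, Hoxa9 stood at 87.1, 110 and 89.2 CPM (-0.23 ± 0.12, edgeR adjusted p = 0.358), Hoxb9 at 67.3, 144 and 96.4 (-0.25 ± 0.15) and Hoxd9 at 31.7, 50.8 and 72.3 (0.16 ± 0.20). Of the 11 tested genes with numbers 9 to 13, 8 were below 0, with a median of -0.23, and of the 16 with numbers up to 8, 9 were above 0, with a median of 0.06, beside -0.01 for all genes.

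The calls for Lhx1 cells were lost with cells thinned and without library 1. Thinning before grouping lowers depth and cell number together, and leaving out a library leaves fewer tubes, so these cannot be told apart. With each cell thinned to 6000 UMIs, which leaves 39 Lhx1 cells, 0 Hox genes passed in either comparison. Hoxa10 was then at a log2 difference of -0.14 from Wnt4 and -0.15 from Six2 cells (edgeR adjusted p = 0.981 and 0.870), Hoxb7 at 0.86 and 0.77 (0.857 and 0.430), and Hoxc10 at -0.91 and -0.75 (0.279 and 0.193). With the sums thinned, Hoxc10 against Wnt4 cells (edgeR adjusted p = 0.0295) and Hoxa10 against Six2 cells (0.0420) still passed. Library 1 holds 31 of the 79 cells and the largest of the 3 sums (758156 UMIs, against 373985 and 414859). Without library 1, 0 of the 27 genes passed in either comparison of Lhx1 cells. The log2 differences of Hoxb7 were then 0.84 from Wnt4 cells (edgeR adjusted p = 0.134) and 0.49 from Six2 cells (edgeR adjusted p = 0.297), those of Hoxa10 -0.37 and -0.35 (0.272 and 0.139), and those of Hoxc10 -0.56 and -0.37 (0.113 and 0.237). Without the block Hoxb7 kept its calls (edgeR adjusted p = 0.0105 and 0.0375), while Hoxa10 (0.345 and 0.170), Hoxc10 (0.0889 and 0.221) and Hoxc8 against Wnt4 cells (0.390) did not. The call of Hoxc10 against Six2 cells was also lost without library 2 (edgeR adjusted p = 0.0584) and without library 3 (0.176). With immune and ureteric-marker cells left out, Hoxa10 kept both calls (0.0200 and 0.0050) and Hoxc10 that against Wnt4 cells (0.0171), but not that against Six2 cells (0.138). At an unadjusted p under 0.05, 9 genes passed against Wnt4 cells and 6 against Six2 cells, again without a count over all genes.

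By cluster, the share of Hox UMIs in Lhx1 cells was 30.9% ± 1.66 for Hoxa, 35.4% ± 3.50 for Hoxb, 17.9% ± 2.76 for Hoxc and 15.8% ± 3.32 for Hoxd (SD, n = 3 libraries). The Hoxa share lay below every Six2 and Wnt4 value. The Hoxb share lay above every Six2 and Wnt4 value, with 32.1% in library 3 next to the highest Six2 value of 31.9%. The Hoxd share was 16.2% ± 0.70 in Six2 and 15.6% ± 0.18 in Wnt4 cells, and the 3 groups overlapped.

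**Figure D4:**
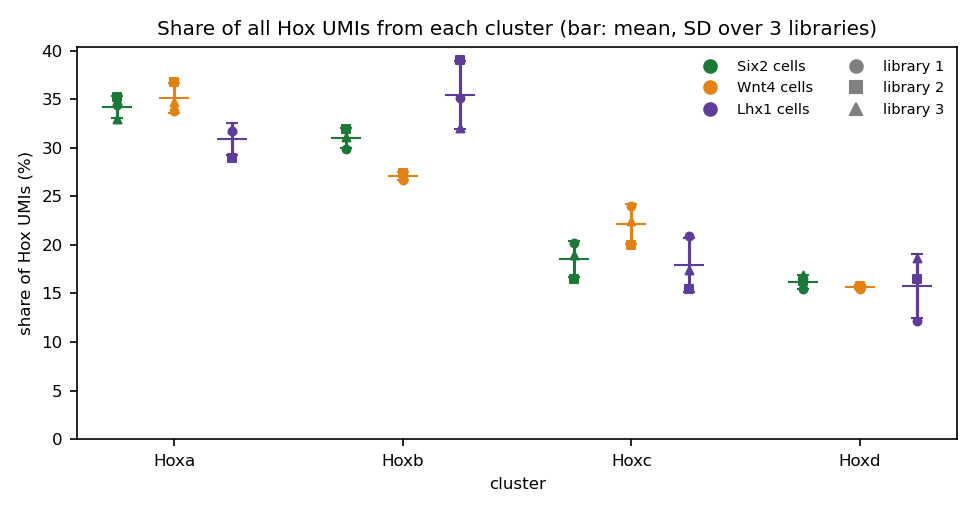
Share of all Hox UMIs (vertical axis, percent) from each cluster (horizontal axis) in Six2 (green), Wnt4 (orange) and Lhx1 (purple) cells; points are libraries, the horizontal bar is the mean and the error bar the SD over 3 libraries. The Hoxb share is lowest in Wnt4 cells (27.1%) and highest in Lhx1 cells (35.4%), and the Hoxc share is highest in Wnt4 cells (22.2%).

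Hox proteins bind DNA together with cofactors of the TALE class, the Pbx, Meis and Pknox proteins, which raise their specificity, and Tgif1 and Tgif2 are of the same class. Of the 11 TALE genes listed, 10 were tested, and 1 was called higher and 3 lower in Wnt4 than in Six2 cells. These are 10% and 30% of the 10, beside 4.86% and 5.34% of all genes. The median log2 difference was -0.16, beside -0.01 for all genes. Meis2 was the most abundant of those called lower, at 634, 602 and 606 CPM in Six2 cells, 508, 474 and 420 in Wnt4 cells and 450, 529 and 299 in Lhx1 cells. It fell by 0.40 ± 0.06 on the log2 scale to Wnt4 cells (edgeR adjusted p = 0.0001) and by 0.54 ± 0.09 to Lhx1 cells (edgeR adjusted p = 0.0003). Its Six2 sums lay above all others. Meis3 (48.2, 63.9 and 50.4 CPM in Six2 cells, 27.3, 54.3 and 31.8 in Wnt4 cells) fell by 0.61 ± 0.11 (edgeR adjusted p = 0.0004), and Meis1 (70.8, 89.2 and 70.1, then 54.4, 78.1 and 62.3) by 0.27 ± 0.07 (edgeR adjusted p = 0.0193). Between Lhx1 and Wnt4 cells 0 of the 10 TALE genes passed, and between Lhx1 and Six2 cells Meis2 and Meis3 (-0.76 ± 0.22, edgeR adjusted p = 0.0458) did, 20% of the list beside 1.86% of all genes lower. Meis1 in Lhx1 cells (48.8, 74.9 and 62.7) was at -0.35 ± 0.15 (edgeR adjusted p = 0.211).

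Hox11 proteins act in kidney mesenchyme with Eya1 and Pax2 to switch on Six2 and Gdnf. Of the 9 genes listed as their partners and targets, all were tested, and 1 was called higher and 3 lower in Wnt4 cells (11.1% and 33.3%, beside 4.86% and 5.34% of all genes), 1 of these being Six2, which defines the groups. The median log2 difference of the list was 0.01. Pax2, a paired-domain factor of the lineage, was at 137, 159 and 134 CPM in Six2 and 200, 217 and 203 in Wnt4 cells, a rise of 0.53 ± 0.05 (edgeR adjusted p = 2.94e-07). Eya1, a transcriptional coactivator, fell by 0.21 ± 0.06 (edgeR adjusted p = 0.0144) from 207, 355 and 229 CPM to 174, 338 and 187, and Osr1 by 0.59 ± 0.08 (edgeR adjusted p = 1.06e-05) from 232, 352 and 241 to 162, 249 and 141. Both were also called lower in Lhx1 than in Six2 cells, with log2 differences of -0.62 ± 0.10 and -0.94 ± 0.13 (edgeR adjusted p = 0.0002 and 5.73e-05). With Six2 they made 33.3% of the list, beside 1.86% of all genes lower. Six2 defines the groups, so both shares of 33.3% count 1 gene that is no result. Between Lhx1 and Wnt4 cells 0 of the 9 genes passed. Gdnf, the signal to the ureteric bud, was at 49.2, 77.4 and 46.1 CPM in Six2 cells and 50.2, 74.8 and 63.6 in Wnt4 cells and did not pass (0.13 ± 0.10). Eya1, Osr1 and Six2 are markers of uncommitted progenitors too, the groups being cut by Six2.

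Genes that set or maintain Hox expression were read as a pair of lists. Of the 24 Polycomb, Trithorax and related chromatin regulators listed, 23 were tested, with a median log2 difference of -0.10 between Wnt4 and Six2 cells, beside -0.01 for all genes. The calls were 1 higher (4.35%) and 2 lower (8.70%), near the 4.86% and 5.34% of all genes. In Wnt4 against Six2 cells Suz12, a core subunit of Polycomb complex 2, was called higher (39.6, 46.1 and 36.4 CPM, then 43.7, 62.9 and 49.5; 0.31 ± 0.09, edgeR adjusted p = 0.0263), and Jarid2, an accessory subunit, and Kdm6b, which removes the mark that this complex writes, were called lower (-0.34 ± 0.10 and -0.39 ± 0.10, edgeR adjusted p = 0.0263 and 0.0090). In the comparisons of Lhx1 cells 0 of the 23 passed. Of the 12 axial inputs listed (Cdx factors, retinoic acid genes, Fgf8, Gdf11 and T), 5 were tested, with a median of -0.06 in that comparison, and 1 was called higher there and 2 in Lhx1 against Six2 cells, beside 4.86% and 3.31% of all genes. Aldh1a2, the enzyme that makes retinoic acid, was higher in Wnt4 cells (113, 123 and 134 CPM, against 58.7, 81.5 and 59.5; 0.92 ± 0.08, edgeR adjusted p = 4.54e-08) and in Lhx1 cells (132, 134 and 101; 0.94 ± 0.15, edgeR adjusted p = 0.0002). Fgf8 was higher in Lhx1 than in Six2 cells (54.1, 107 and 106 against 48.2, 63.4 and 46.6 CPM; 0.66 ± 0.16, edgeR adjusted p = 0.0160). Cdx2, Cdx4 and Cyp26a1 had no UMI in the 3 groups. Of 19 non-coding and antisense genes of the Hox clusters listed, 10 were matched by name and 3 tested (Hoxb3os, Hoxb5os and Hoxd3os1), of which 0 passed in any of the 3 comparisons.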

How the data were processed

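The authors deposited a sparse matrix of UMI counts, not normalized, per gene and cell. The submitters' processing notes name Cell Ranger 1.3.1 and mm10. The annotation and the strand used in counting are not stated in those sources. Cells with at least 1000 genes and at most 10% mitochondrial UMIs were kept (7898 of 7924 barcodes). Scrublet's method called 20 cells (0.253%), where the expected rate was set to 3%. Whether it missed doublets was not tested, and no doublet was removed. Cells of the 3 groups held 37287650, 28314557 and 28715639 UMIs (Six2), 4279396, 1511493 and 2421827 (Wnt4) and 758156, 373985 and 414859 (Lhx1) in libraries 1, 2 and 3. Cells with both Six2 and Lhx1 went to the Lhx1 group.

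The 9 sums were tested in 1 fit with edgeR 4.0.16 (TMM scaling, filterByExpr, library block), and SEs were taken from the log2 difference and its F statistic. The pairing by library comes from the tubes, since all groups of a library share 1 tube. In data simulated for Wnt4 against Six2 cells over 10240 genes, with 100 genes changed at each fold, 77% of genes changed 1.5-fold and 90% of those changed 2-fold were recovered, and 4 unchanged genes were called. The simulation gave all genes the same spread and held no differences between libraries beyond their total UMIs. Smaller folds, such as the 1.35 of Hoxc9 and the 1.13 of Hoxc10, and changes in Lhx1 cells were not simulated. For shares of cells, each cell was thinned to 6000 UMIs and 196 shallower cells were left out. Intervals and limits cover counting error only. Named genes are all members called in any comparison, all paralogues 9, 10 and 11 with a UMI, listed genes that passed, and the cofactors Meis1 and Meis2, with 2 genes under this rule or under the filter on low counts not reported here. Gdnf, Hoxb5os, Hoxb2 and the Hox genes near the threshold were added after their values were seen. The members and the lists were chosen with earlier results of these data known. The alternatives tried include DESeq2 1.42.0, RLE scaling, other cell filters and groups, thinning, and fits without the block or without 1 library.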

Additional observations from a re-analysis of the deposited data

How the results depend on the processing

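Across 17 alternatives, no called Hox gene changed direction, and Hoxc11, filtered out in 2 of them, has a value in 15. Hoxc9 kept its call between Wnt4 and Six2 cells in 14 of 17, Hoxb7 and Hoxc10 between Lhx1 and Wnt4 cells in 14, Hoxa10 between Lhx1 and Six2 cells in 14, and Hoxc8 between Lhx1 and Wnt4 cells in 5. Unless a setting is named here, the counts of called Hox genes stayed within 1.5 times those reported, and the cause of each change was not tested.

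For Wnt4 against Six2 cells (4 higher and 2 lower), cells thinned to 6000 UMIs (which leaves 3990, 179 and 39 cells in the 3 groups) and sums thinned to the smallest each gave 0 higher and 0 lower. DESeq2 gave 1 and 0, and the fit with no replicate block 0 and 0. No filter on low counts gave 4 lower, as did a fit of only the 2 groups compared. Leaving out 1 library gave 1 to 5 higher and 0 to 2 lower. For Lhx1 against Wnt4 cells (1 higher and 3 lower), cells thinned gave 0 and 0, sums thinned 0 and 1, no replicate block 0 lower, and groups cut at 2 UMIs 5 lower. Leaving out 1 library gave 0 to 1 higher and 0 to 2 lower. For Lhx1 against Six2 cells (1 higher and 2 lower), leaving out immune and ureteric-marker cells gave 0 and 1, leaving out stromal-marker cells 1 lower, cells thinned 0 and 0, sums thinned 0 and 1, DESeq2 1 lower and no replicate block 0 lower. Leaving out 1 library gave 0 to 1 higher and 0 to 2 lower. Without the block Hoxb7 kept its calls in Lhx1 cells and was the only called Hox gene to do so.

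Cluster shares moved beyond 1 SD in a few cases. With stromal-marker cells left out, Hoxb in Wnt4 cells was 26.6%. With groups cut at 2 UMIs, Hoxa in Lhx1 cells was 28.7%, Hoxb in Lhx1 cells 41.3% and Hoxd in Wnt4 cells 15.4%. With cells thinned, Hoxa in Lhx1 cells was 37.4%, Hoxb in Wnt4 cells 25.6%, Hoxc in Lhx1 cells 12.5% and Hoxd in Wnt4 cells 16.2%, so the lower Hoxa share of Lhx1 cells did not hold in the 39 Lhx1 cells of that setting. Of the shares by paralogue number, 31 moved and 125 did not.

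Over all genes, Wnt4 against Six2 cells had 498 genes higher and 547 lower, against 190 and 136 with DESeq2, 54 and 32 with no replicate block, 78 and 97 with cells thinned, 21 and 34 with sums thinned, 129 and 140 without library 1, 163 and 201 without library 3, and 808 higher with only the 2 groups. Lhx1 against Wnt4 cells had 102 and 16, against 61 and 8 with no replicate block, 8 and 2 with cells thinned, 33 and 7 with sums thinned, 193 and 66 with no filter and 32 and 3 without library 1. The lower count was 53 with groups cut at 2 UMIs, 30 without barcodes rich in A and T and 44 without library 2. Lhx1 against Six2 cells had 339 and 190, against 421 and 117 with DESeq2, 155 and 35 with no replicate block, 22 and 19 with cells thinned, 87 and 64 with sums thinned, 99 and 19 without library 1 and 206 and 85 without library 3. The lower count was 327 with groups cut at 2 UMIs, 374 with no filter and 304 without library 2.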

Other observations

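The 1395 cells in which none of Six2, Wnt4 and Lhx1 was caught carried the Hox code as well. Their Hox RNA summed to 1666, 2168 and 1634 CPM in libraries 1, 2 and 3, beside 1746, 2354 and 1786 CPM in Six2 cells, and at 6000 UMIs they held a median of 7, 8 and 7 Hox genes. Hoxa10 was found in 82.0% of 1297 of these cells, Hoxc10 in 65.8%, Hoxd11 in 47.03% and Hoxc8 in 17.0%. The cells are shallower than the named groups, at medians of 13846.5, 10773 and 13676.5 UMIs, and 69 of them (22, 24 and 23) were immune cells.

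Hoxb1, a gene of the head end of its cluster, stayed under the filter on low counts. It stood at 1.13, 0.918 and 0.627 CPM in Six2 cells, 0.234, 1.98 and 3.30 in Wnt4 cells and 3.96, 8.02 and 0 in Lhx1 cells, where it rests on 3 UMIs in library 1 and 3 in library 2.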
